A study of Mus musculus with 16 samples.

Results

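VE-cadherin-positive cells of the yolk sac of Tie-2-Etv2 mouse embryos were divided by the leukocyte surface protein CD45, and transcript levels of the CD45+ cells were compared with those of the CD45- cells. The arrays were chosen by their sample titles, which name the tissue, the gate and the genotype, and no measured value entered the choice. They were 4 of the 16 arrays of the study, 2 of the CD45+ gate and 2 of the CD45- gate. All animals of the study were at E11.5 and of mixed strain (B6/CBA and others). Tie-2-Etv2 animals carried an Etv2 transgene that was switched on by a Tie-2 Cre transgene, so that recombination followed the activity of the Tie-2 promoter in endothelial and blood-forming cells. Every sample was positive for VE-cadherin, and the gates were VE-Cadherin+/CD45+(P4) and VE-Cadherin+/CD45-(P3). Control yolk sac CD45+ and CD45- cells (2 arrays each) and Tie-2-Etv2 embryo CD45+ and CD45- cells (2 arrays each) are used where the comparison is set beside another. The labels give no alleles for the controls, and they do not say whether the arrays of a group came from separate litters or pools. The p-values therefore reflect how far these arrays lie apart, and that spread may be technical.

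VE-cadherin, encoded by Cdh5, is the adhesion protein of endothelial junctions, and CD45, encoded by Ptprc, is a phosphatase of nearly all nucleated blood cells. In the yolk sac the first blood cells and the first vessels form side by side, and cells that carry both proteins include blood cells that have recently left a hemogenic endothelium, the endothelium that gives rise to blood. Etv2 is an ETS-family transcription factor that switches on early endothelial and blood genes and is normally silent again by midgestation. Tek encodes the receptor Tie-2.

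Levels are given as the log2 of the processed signal minus the 75th percentile of the array, so a level of 0 is the 75th percentile itself and a difference of 1 is a doubling. Between 51.8% and 61.0% of the spots that were not controls were well above background on the 16 arrays, and 0 spots were saturated. The lowest and highest correlations across genes between a CD45+ and a CD45- array of the Tie-2-Etv2 yolk sac were 0.947 and 0.958, against 0.989 between the CD45+ arrays and 0.985 between the CD45- arrays. All yolk sac arrays shared a slide and a scan. The gates lay in different positions on that slide, as did the genotypes, so neither can be told apart from position. The arrays hold RNA of all cells in a gate, and fewer cells of a type cannot be told apart from less RNA per cell.

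The sorting markers ran as the gates are named. Ptprc was at 2.08 and 2.06 on the CD45+ arrays of the Tie-2-Etv2 yolk sac and at -2.92 and -3.43 on its CD45- arrays, a difference of 5.24 ± 0.30 (SE of the fit) or 37.9-fold (limma, Benjamini-Hochberg adjusted p = 5.69e-06). Its probe lies at chr1:139961083-139961142 on the minus strand of mm9, the build of the array files. Cdh5, read at chr8:106668159-106668218, was at 2.86 and 3.13 on the CD45+ arrays and 4.72 and 4.76 on the CD45- arrays and was 3.35-fold lower in CD45+ cells (difference -1.75 ± 0.30, adjusted p = 0.00361). Cdh5 was thus measured well above background in both gates. Tek, read at chr4:94540624-94540683, was at 2.52 and 2.64 on the CD45+ arrays and 3.62 and 3.46 on the CD45- arrays, and its difference of -0.96 ± 0.31 did not pass the threshold of 0.05 (adjusted p = 0.0846). It passed with the replicate block, with normexp background and with the 4 arrays alone, at adjusted p = 0.0283, 0.00923 and 0.0482.

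Etv2 message was measured on both sides of the sort. Etv2, read by probes at chr7:31418776-31418835 and chr7:31419633-31419692 on the minus strand, was at 2.11 and 1.76 on the CD45+ arrays and 3.90 and 3.26 on the CD45- arrays by the brighter probe. The other probe read 2.10 and 1.97 on the CD45+ arrays and 3.44 and 2.93 on the CD45- arrays. Every Tie-2-Etv2 array was above every control yolk sac array by both probes, and the control arrays held -6.20 and -2.09 in CD45+ cells and -2.60 and -2.95 in CD45- cells by the brighter one. The probes cannot separate the transgene from the endogenous gene. The gate difference in Etv2 was -1.64 ± 0.96 and did not pass the test (adjusted p = 0.425), although the arrays of the gates did not overlap, and with normexp background it was -1.58 with an adjusted p of 0.00292. The error of the fit pools the spread within all 8 groups, and the control CD45+ arrays stood far apart for this gene. Of Ptprc, Cdh5, Tek and Etv2, 3 were well above background on both control CD45+ arrays, and Etv2 read lowest there.

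**Figure D1:**
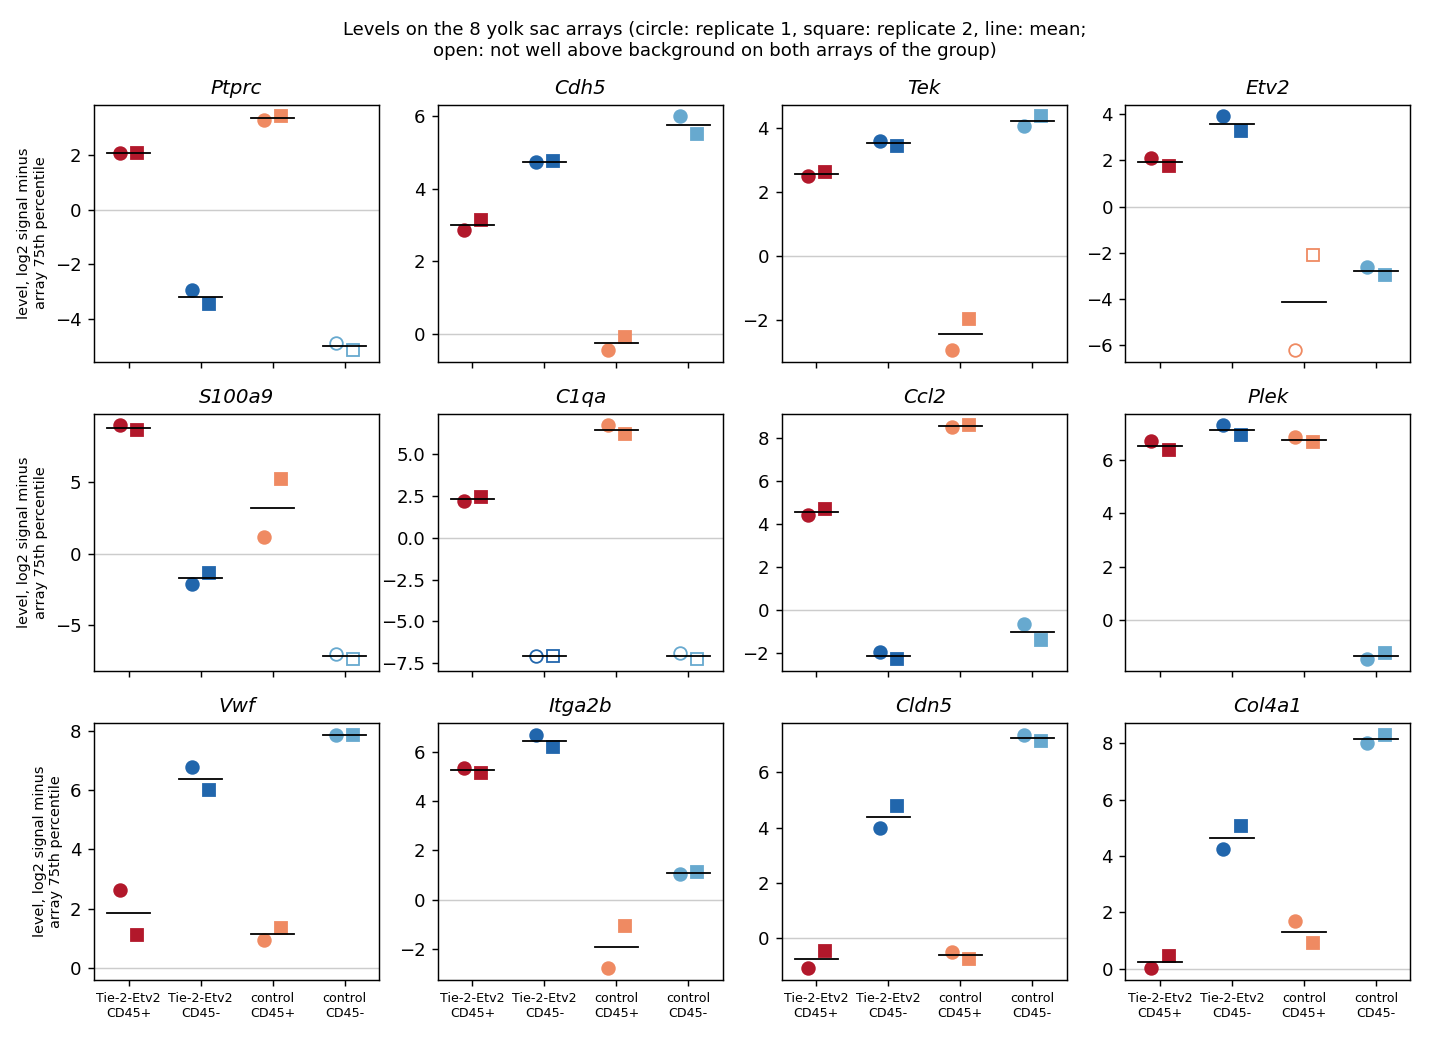
Levels of 12 genes on the 8 yolk sac arrays, as log2 signal minus the 75th percentile of the array, with the Tie-2-Etv2 gates left of the control gates; points are single arrays and lines are means of 2 arrays. Ptprc, S100a9, C1qa and Ccl2 were higher on both Tie-2-Etv2 CD45+ arrays, Plek lay within 1 log2 unit on all 4 Tie-2-Etv2 arrays, and Vwf, Cldn5 and Col4a1 were higher on both CD45- arrays.

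Of 24578 genes tested, 2553 passed the test between the gates, which is 10.4% of them. There were 1096 genes higher in CD45+ cells (4.46%) and 1457 lower (5.93%). The higher genes were led by granule proteins of neutrophils and eosinophils, by complement and surface proteins of macrophages and by chemokines. The lower genes were led by endothelial, arterial and basement membrane genes, and genes of platelets were also among them. Leaving out CD45+ replicate 1 brought the counts to 645 higher and 914 lower. The median difference over all genes was 0.06.

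**Figure D2:**
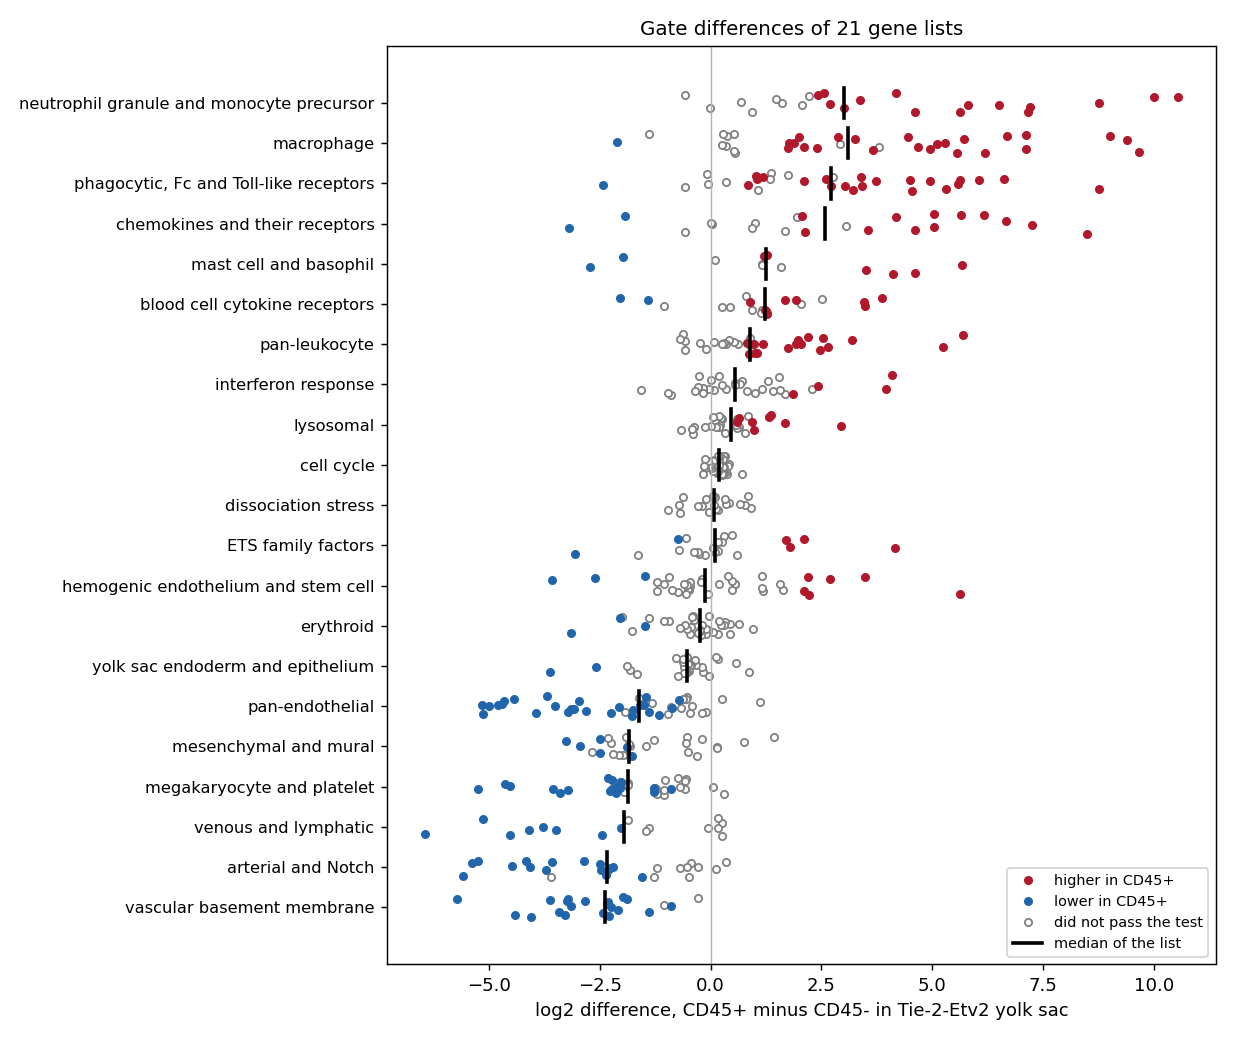
Log2 difference, CD45+ minus CD45- in the Tie-2-Etv2 yolk sac, for the genes of each list; filled points passed the test, open points did not, and black bars are list medians. Granulocyte, macrophage and chemokine lists lay mostly above 0, and platelet, arterial and basement membrane lists lay mostly below it.

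The largest differences of all were in genes of granulocytes. Of the 23 tested genes of neutrophil granules and monocyte precursors, 15 were higher in CD45+ cells and 0 were lower, with a median difference of 3.01. S100a9, a calcium-binding alarm protein of neutrophils, was at 8.96 and 8.65 on the CD45+ arrays and -2.13 and -1.34 on the CD45- arrays, a 1486-fold difference (adjusted p = 0.00108). Its partner S100a8 was at 7.94 and 7.65 on the CD45+ arrays and -2.54 and -1.86 on the CD45- arrays (difference 9.996 ± 1.62, adjusted p = 0.00237). Both genes were well above background on all 4 arrays, and their gates lay far apart. Ltf, which encodes the iron-binding lactoferrin of secondary granules, was at 4.14 and 2.00 on the CD45+ arrays and -3.89 and -4.38 on the CD45- arrays (adjusted p = 0.000389). Ctsg, a protease of primary granules, was at 3.64 and 3.14 on the CD45+ arrays and -3.80 and -3.74 on the CD45- arrays (adjusted p = 0.00196). Hp, which encodes the hemoglobin-binding protein haptoglobin, was at 4.70 and 3.81 on the CD45+ arrays and -2.56 and -2.50 on the CD45- arrays. For each of these genes both CD45+ arrays lay above both CD45- arrays, and for Ltf, Ctsg, Hp and Ngp the first CD45+ array read higher than the other. Ngp, a further granule protein, was at 2.96 and 0.71 on the CD45+ arrays and not well above background on the CD45- arrays, so that it was at least 104-fold higher (adjusted p = 0.000694).

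Mpo and Elane, which also encode granule proteins, lay below the median of the list. Mpo, the myeloperoxidase of the first granules to form, was at 9.14 and 8.87 on the CD45+ arrays and 6.60 and 6.28 on the CD45- arrays, a difference of 2.57 ± 0.53 (adjusted p = 0.0103), and it lost the call without CD45+ replicate 1 and without CD45- replicate 2 (adjusted p = 0.0763 and 0.0739). Elane, the neutrophil elastase, was at 1.32 and 0.41 on the CD45+ arrays and 0.22 and -0.36 on the CD45- arrays and did not pass (adjusted p = 0.0958), and it passed with the replicate block and without CD45+ replicate 2 (adjusted p = 0.0217 and 0.0227). Of the transcription factors in this list, Cebpe, Cebpa and Gfi1 were higher in CD45+ cells, and Cebpb, Irf8, Cebpd and Klf4 did not pass (adjusted p = 0.0688, 0.0846, 0.49 and 0.771). Cebpe, a factor for late granule genes, was at 4.23 and 4.004 on the CD45+ arrays and -2.96 and -1.80 on the CD45- arrays (difference 6.50 ± 0.87, adjusted p = 0.000705). Cebpa, which acts earlier, differed by 2.69 ± 0.40 (adjusted p = 0.00142), and Gfi1, a repressor needed for neutrophils, was higher by at least 41.7-fold (adjusted p = 0.000514).

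Stefins, small inhibitors of cysteine proteases that mouse neutrophils carry as a tandem family, made up much of the top of the list. Stfa1 was at 8.35 and 7.82 on the CD45+ arrays and -2.44 and -1.49 on the CD45- arrays, a 1061-fold difference (adjusted p = 0.00013), and Cstdc5 at 8.63 and 8.18 on the CD45+ arrays and -1.94 and -1.42 on the CD45- arrays (adjusted p = 0.0002). Csta2 was 179-fold higher (adjusted p = 7.85e-06). Cstdc4, Stfa2 and Stfa2l1 were not well above background on either CD45- array and were at least 1409-fold, 772-fold and 687-fold higher in CD45+ cells. These genes are near-identical copies, and a probe may read several of them, so the values are uncertain as to which copy they belong to. Prg2, the major basic protein of eosinophil granules, was at 5.74 and 3.94 on the CD45+ arrays and was at least 830.5-fold higher (adjusted p = 7.61e-05).

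Genes of mast cells and basophils were split: 6 of 12 tested were higher in CD45+ cells and 2 were lower, with a median of 1.24. Leaving out any single of the 4 arrays left 3 or 4 higher and 1 lower, 3 of them without CD45+ replicate 2. Hdc, the enzyme that makes histamine, was at 4.92 and 4.39 on the CD45+ arrays and -1.44 and -0.60 on the CD45- arrays (difference 5.68 ± 0.58, adjusted p = 0.000133). Cpa3, the carboxypeptidase of mast cell granules, was at 4.93 and 4.74 on the CD45+ arrays and 0.60 and 0.85 on the CD45- arrays (adjusted p = 0.0188), a call that was lost without any single of the 4 arrays (adjusted p = 0.0793 to 0.106) and with the 8 yolk sac arrays (0.0575). The basophil proteases Mcpt8 and Prss34 were higher: Mcpt8 by at least 6.33-fold (adjusted p = 0.000144), and Prss34 at 0.28 and -1.53 on the CD45+ arrays and -3.95 and -4.31 on the CD45- arrays (adjusted p = 0.0008). Prss34 lost the call with the 4 arrays alone (adjusted p = 0.0612). Mcpt4, a protease of connective tissue mast cells, ran the other way, at least 1.97-fold lower in CD45+ cells (adjusted p = 0.0037), and this call was lost with normexp background (difference -0.33, adjusted p = 0.497). With normexp background, which compresses dim values, the differences of Ngp, Gfi1, Cstdc4, Stfa2l1, Prg2, Mcpt8 and Prss34 were 4.34, 2.79, 7.92, 7.04, 7.08, 1.21 and 1.72.

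Promoters are shown for S100a8, which had one of the largest differences of the CD45+ side, for Gp6, a platelet gene that was lower in CD45+ cells, and for Tek, whose promoter gives the Tie-2 Cre its name. Each stretch is the 250 bases before the first start listed by RefSeq, on GRCm38.p6, written 5′ to 3′ on the strand of the gene. Capitals mark a match, on either strand, to AGATAA, the core bound by GATA factors, to GAGGAAGT, a form of the purine box bound by PU.1, or to TTGCGCAA, a C/EBP palindrome. The motifs do not overlap each other in these stretches.
S100a8 (chr3:90668821-90669070, plus strand): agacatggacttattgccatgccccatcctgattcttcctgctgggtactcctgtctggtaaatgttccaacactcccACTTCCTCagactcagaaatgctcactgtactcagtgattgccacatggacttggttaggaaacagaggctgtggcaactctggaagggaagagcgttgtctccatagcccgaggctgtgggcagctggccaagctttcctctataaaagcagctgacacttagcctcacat
Gp6 (chr7:4397745-4397994, minus strand): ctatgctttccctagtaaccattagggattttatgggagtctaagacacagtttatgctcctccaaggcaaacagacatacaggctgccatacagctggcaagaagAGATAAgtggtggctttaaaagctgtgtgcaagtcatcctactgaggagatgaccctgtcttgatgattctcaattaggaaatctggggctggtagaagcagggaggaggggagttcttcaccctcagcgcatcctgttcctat
Tek (chr4:94739039-94739288, plus strand): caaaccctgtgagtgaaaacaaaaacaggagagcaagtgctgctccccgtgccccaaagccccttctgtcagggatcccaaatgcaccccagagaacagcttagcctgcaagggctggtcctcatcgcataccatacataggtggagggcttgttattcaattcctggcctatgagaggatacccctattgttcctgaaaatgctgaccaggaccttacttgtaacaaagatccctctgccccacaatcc
The S100a8 stretch held 1 purine box, on the minus strand, which begins 172 bases before the start. The Gp6 stretch held 1 GATA core, on the plus strand, 144 bases before the start. No match lay in the Tek stretch. Of 27025 genes with a promoter in the table, 2.44% held GAGGAAGT, 10.3% held AGATAA and 0.17% held TTGCGCAA. Among the tested genes with a promoter, GAGGAAGT stood in 47 of 693 that were higher in CD45+ cells (6.78%), in 12 of 942 that were lower (1.27%) and in 317 of all 12907 (2.46%). AGATAA stood in 9.09% of the higher, 5.52% of the lower and 6.86% of all tested genes, and TTGCGCAA in 0.289%, 0.212% and 0.209%. GAGGAAGT stood in 4 of 21 genes of the neutrophil granule and monocyte precursor list and in 1 of 24 of the platelet list. AGATAA stood in 3 and 4 of them, so the stretches shown do not stand for their lists. These are counts of letters and do not show that a factor was bound.

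Macrophage genes were the other large group on the CD45+ side. Of 34 tested, 23 were higher in CD45+ cells and 1, Pf4, was lower, with a median difference of 3.10. The complement genes C1qa, C1qb and C1qc, which encode the chains of C1q, were all higher. C1qa was at 2.21 and 2.44 on the CD45+ arrays and dim on both CD45- arrays, at least 146-fold apart (adjusted p = 8.82e-07), and C1qc was at least 287-fold apart. C1qb was measured in both gates, at 3.15 and 3.22 on the CD45+ arrays and -1.54 and -2.64 on the CD45- arrays (adjusted p = 3.15e-05). Ctss, a lysosomal protease of antigen-presenting cells, was at 3.32 and 2.59 on the CD45+ arrays and at least 226-fold higher (adjusted p = 1.02e-05). C1qa, C1qc and Ctss were thus clear of background in the CD45+ gate alone.

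Receptors of macrophages differed as well. Cx3cr1, the fractalkine receptor of yolk sac macrophages, was at 3.64 and 3.99 on the CD45+ arrays and -3.21 and -2.52 on the CD45- arrays, a 103-fold difference (adjusted p = 4.82e-05). Adgre1, which encodes a macrophage surface antigen, was at 0.97 and 1.37 on the CD45+ arrays and -4.198 and -4.59 on the CD45- arrays (adjusted p = 2.46e-06), and its other probe gave 9.24. Csf1r, the receptor for the growth factor of macrophages, was at 5.67 and 5.93 on the CD45+ arrays and 2.06 and 2.21 on the CD45- arrays and was 12.6-fold higher, with 1.70 to 4.34 over its 3 probes (adjusted p = 1.64e-05). Lyz2, the lysozyme gene of macrophages and neutrophils, was measured at 5.32 and 5.23 on the CD45+ arrays and 2.98 and 2.76 on the CD45- arrays (adjusted p = 0.000381). Csf1r and Lyz2 were thus also well measured in CD45- cells. F13a1, a coagulation factor that macrophages and platelets carry, was at 5.55 and 5.60 on the CD45+ arrays and 5.30 and 4.78 on the CD45- arrays and did not pass (adjusted p = 0.367). With normexp background the differences of C1qa, C1qc, Ctss and Adgre1 were 4.86, 5.56, 5.00 and 3.36.

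Receptors for pathogens, antibodies and dying cells moved with the macrophage genes: 21 of 31 were higher in CD45+ cells and 1 was lower, with a median of 2.71. Ly86, a partner of a Toll-like receptor relative, was at least 167-fold higher (adjusted p = 1.19e-05), Tlr1 at least 29.7-fold (adjusted p = 0.000112) and Fcgr2b, an inhibitory antibody receptor, at least 23.9-fold (adjusted p = 7.54e-06). Both signalling adaptors described here were higher in CD45+ cells. Tyrobp was at 6.36 and 6.08 on the CD45+ arrays and 3.04 and 2.61 on the CD45- arrays (adjusted p = 0.000593), and Fcer1g was at 6.65 and 6.52 on the CD45+ arrays and 5.93 and 5.56 on the CD45- arrays (adjusted p = 0.0208). Fcer1g lost its call without CD45+ replicate 1, CD45+ replicate 2 or CD45- replicate 2, at adjusted p = 0.146, 0.0722 and 0.169, and with the 4 arrays alone and the 8 yolk sac arrays (0.102 and 0.0732). The lower gene was Tlr3, a sensor of RNA (adjusted p = 0.0379), and without any single of the 4 arrays 0 were lower. Tlr9, a sensor of DNA, was at 1.46 and 1.41 on the CD45+ arrays and 1.53 and 1.48 on the CD45- arrays. Itgam, the integrin chain CD11b, was at 4.18 and 4.21 on the CD45+ arrays and 4.45 and 4.06 on the CD45- arrays by its brightest probe and differed by up to 3.34 by another, so its 3 probes disagree. The mean of its probes passed the test (difference 1.68, adjusted p = 0.000963). With normexp background the differences of Ly86, Tlr1 and Fcgr2b were 4.94, 2.62 and 2.33.

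Among chemokines and their receptors 12 of 22 were higher in CD45+ cells and 2 were lower, with a median of 2.59. Without CD45+ replicate 2 or CD45- replicate 2 there were 0 lower, and without CD45+ replicate 1 there was 1. Ccl2, which draws monocytes, was at 4.39 and 4.68 on the CD45+ arrays and -1.97 and -2.28 on the CD45- arrays, a 102-fold difference (adjusted p = 0.00118). Ccl3 was at 5.62 and 5.11 on the CD45+ arrays and 0.27 and 0.38 on the CD45- arrays (adjusted p = 7.37e-05), and Ccl4 at 4.94 and 4.54 on the CD45+ arrays and -1.07 and -0.73 on the CD45- arrays (adjusted p = 0.0013). Ccl7 and Ccl24 were dim in CD45- cells and were at least 181-fold and 55.1-fold higher in CD45+ cells. Cxcl12, the stromal ligand that holds blood progenitors, was lower in CD45+ cells, at -2.86 and -3.18 on the CD45+ arrays and -0.19 and 0.54 on the CD45- arrays (adjusted p = 0.01). Its call was lost without CD45+ replicate 2 and without CD45- replicate 2 (adjusted p = 0.0652 and 0.0834). With normexp background the differences of Ccl7, Ccl24 and Cxcl12 were 4.81, 3.37 and -2.02.

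Receptors for blood cell cytokines showed 10 of 21 higher in CD45+ cells and 2 lower, with a median of 1.22. There were 6 higher without CD45+ replicate 1 or without CD45- replicate 1, and 1 lower without CD45+ replicate 1, without CD45- replicate 2 or with the 4 arrays alone. Csf2rb, the shared signalling chain for IL-3, IL-5 and GM-CSF, was at 5.10 and 4.93 on the CD45+ arrays and 1.36 and 0.94 on the CD45- arrays, a 14.6-fold difference (adjusted p = 5.26e-06). Flt3, a receptor of early progenitors and dendritic cells, was at 0.40 and -1.28 on the CD45+ arrays and -3.77 and -4.07 on the CD45- arrays (adjusted p = 0.0143), and lost the call without CD45+ replicate 1, CD45- replicate 1 or CD45- replicate 2 (adjusted p = 0.137, 0.0597 and 0.0881), with the 4 arrays alone (0.0523) and with the 8 yolk sac arrays (0.0581). Epor, the erythropoietin receptor, was lower in CD45+ cells, at 1.61 and 1.13 on the CD45+ arrays and 3.59 and 3.24 on the CD45- arrays (adjusted p = 0.00112). Csf3r, the receptor for the neutrophil growth factor G-CSF, was at 6.65 and 6.75 on the CD45+ arrays and 6.33 and 6.54 on the CD45- arrays (adjusted p = 0.638). Csf3r was thus high in both gates. Kit, the stem cell factor receptor, was at 3.27 and 3.34 on the CD45+ arrays and 2.13 and 2.14 on the CD45- arrays and did not pass (adjusted p = 0.319), although its arrays did not overlap between the gates. It passed with the 4 arrays alone (adjusted p = 0.0262).

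Lysosomal genes had the smallest median difference among the myeloid lists described here, with 8 of 28 higher in CD45+ cells, 0 lower and a median of 0.45. Leaving out any single of the 4 arrays left 3 to 5 higher, 3 of them without CD45+ replicate 1, and there were 3 with the 4 arrays alone. Ctsc, a protease that activates granule enzymes, was at 3.51 and 3.37 on the CD45+ arrays and 1.76 and 1.74 on the CD45- arrays (adjusted p = 0.000718). Atp6v0d2, a proton pump subunit, was 2.0-fold higher or more (adjusted p = 4.66e-05), and the call did not hold with normexp background (difference 0.57, adjusted p = 0.0845). Lamp1, a lysosomal membrane protein, was at 6.99 and 6.98 on the CD45+ arrays and 6.77 and 6.82 on the CD45- arrays and did not pass (adjusted p = 0.76).

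Genes shared by all leukocytes fell into a part that followed CD45 and a part that did not. Of 32 tested, 17 were higher in CD45+ cells and 0 were lower, with a median of 0.89, and without CD45- replicate 2 the test passed for 11 higher and 1 lower. Cd53, a tetraspanin of leukocytes, was at 1.49 and 1.30 on the CD45+ arrays and -4.85 and -3.77 on the CD45- arrays (adjusted p = 1.64e-05; 3.58 with normexp background). Cytip, a regulator of leukocyte adhesion, was at 3.89 and 3.66 on the CD45+ arrays and 0.83 and 0.33 on the CD45- arrays (adjusted p = 0.00169), and Cd48 at 4.12 and 4.21 on the CD45+ arrays and 1.63 and 1.42 on the CD45- arrays (adjusted p = 8.78e-05). Other genes of this list did not pass, among them Plek, Btk, Vav1 and Fermt3. Plek, a phosphoprotein of platelets and leukocytes, was at 6.71 and 6.36 on the CD45+ arrays and 7.29 and 6.93 on the CD45- arrays, a difference of -0.57 ± 0.27 (adjusted p = 0.282). Btk, the kinase of B cells and platelets, was at 5.18 and 5.31 on the CD45+ arrays and 5.31 and 5.04 on the CD45- arrays, and Vav1, an exchange factor, was at 6.21 and 6.16 on the CD45+ arrays and 6.02 and 5.66 on the CD45- arrays. The gates overlapped for Btk and lay close without overlap for Plek and Vav1. Fermt3, the integrin activator kindlin-3, was at 4.98 and 4.80 on the CD45+ arrays and 5.76 and 5.28 on the CD45- arrays (adjusted p = 0.0586), and this difference passed with quantile normalization, with detected-probe scaling, with a trended robust prior, with normexp background, with the filter within the contrast and without CD45- replicate 2. Rac2, a GTPase of blood cells, was at 6.39 and 6.27 on the CD45+ arrays and 5.65 and 5.06 on the CD45- arrays (adjusted p = 0.0437), and lost the call without CD45+ replicate 1, CD45+ replicate 2 or CD45- replicate 2 (adjusted p = 0.22, 0.132 and 0.309), with the 4 arrays alone (0.127), with the 8 yolk sac arrays (0.147) and with no filter on dim probes (0.0761).

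The CD45- gate carried more of the platelet message. Of 34 tested genes of megakaryocytes and platelets, 0 were higher in CD45+ cells and 17 were lower, with a median of -1.87, and 10 were lower without CD45+ replicate 2 or without CD45- replicate 1. The arrays of the gates did not overlap for 32 of these genes, all lower in CD45+ cells, against 23.3% of all genes below and 28.9% above. Vwf, the adhesive protein of endothelium and platelets, was at 2.62 and 1.12 on the CD45+ arrays and 6.77 and 6.00 on the CD45- arrays, 22.9-fold lower in CD45+ cells (adjusted p = 6.84e-05). Alox12, the lipoxygenase of platelets, was at -0.96 and -1.30 on the CD45+ arrays and 3.78 and 3.25 on the CD45- arrays (adjusted p = 1.26e-05). Gp6, the collagen receptor of platelets, was dim in CD45+ cells and at -1.09 and -1.43 in CD45- cells, at least 10.7-fold lower (adjusted p = 0.00179), and Trpc6, a calcium channel, was at least 6.95-fold lower. Vwf and Alox12 were well above background in both gates, and Gp6 and Trpc6 in CD45- cells alone.

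The other platelet genes described here were also well above background in both gates. Pf4, the platelet chemokine, was at 7.27 and 6.64 on the CD45+ arrays and 9.17 and 8.95 on the CD45- arrays (difference -2.10 ± 0.32, adjusted p = 0.0018). Gp1ba, a chain of the receptor for von Willebrand factor, was at 1.13 and 0.56 on the CD45+ arrays and 4.46 and 4.003 on the CD45- arrays (adjusted p = 0.0102), and Itgb3, the beta chain of the fibrinogen receptor, at 4.93 and 4.74 on the CD45+ arrays and 7.31 and 6.87 on the CD45- arrays (adjusted p = 0.0098). Both lost the call without CD45+ replicate 2 (adjusted p = 0.0737 and 0.0633) and without CD45- replicate 1 (adjusted p = 0.0712 and 0.0749), and Itgb3 also with the 8 yolk sac arrays (0.0549). Itga2b, the alpha chain and an early marker of blood formation, was at 5.34 and 5.15 on the CD45+ arrays and 6.70 and 6.21 on the CD45- arrays and did not pass (adjusted p = 0.171), but it passed with normexp background (adjusted p = 0.013). The transcription factor Nfe2 was at 4.92 and 4.71 on the CD45+ arrays and 4.74 and 4.28 on the CD45- arrays (adjusted p = 0.835), and Rgs18, a regulator of platelet signalling, at 3.20 and 3.35 on the CD45+ arrays and 3.36 and 3.11 on the CD45- arrays (adjusted p = 0.962). The gates overlapped for Nfe2 and Rgs18. With normexp background the differences of Gp6 and Trpc6 were -1.44 and -1.04.

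Endothelial genes were lower in CD45+ cells by widely differing amounts. Of 41 tested pan-endothelial genes, 0 were higher and 26 were lower, with a median of -1.602. Cldn5, the claudin of endothelial tight junctions, was at -1.07 and -0.45 on the CD45+ arrays and 3.97 and 4.78 on the CD45- arrays, 35.2-fold lower (adjusted p = 8.84e-06). Ushbp1 was at -2.52 and -2.24 on the CD45+ arrays and 2.18 and 3.36 on the CD45- arrays (adjusted p = 1.64e-05), with -3.57 by its other probe. Clec14a, an endothelial lectin, was at -4.35 and -3.86 on the CD45+ arrays and 0.33 and 1.46 on the CD45- arrays (adjusted p = 1.47e-05). Flt1, a receptor for VEGF, was at 0.19 and 1.18 on the CD45+ arrays and 4.59 and 5.65 on the CD45- arrays (adjusted p = 0.000136), with -1.69 by its other probe, and Plvap, of fenestrated capillaries, at 1.79 and 1.93 on the CD45+ arrays and 4.59 and 5.43 on the CD45- arrays (adjusted p = 3.06e-05). Palmd was at least 7.23-fold lower by its brighter probe (adjusted p = 0.000268), while its other probe gave 0.20.

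Other genes of the list did not pass, among them Pecam1, Erg and Kdr. Pecam1, which endothelial and many blood cells share, was at 1.65 and 1.52 on the CD45+ arrays and 1.67 and 1.88 on the CD45- arrays (adjusted p = 0.797). Erg, an ETS factor of endothelium and stem cells, was at -0.43 and -0.10 on the CD45+ arrays and -0.92 and -0.12 on the CD45- arrays (adjusted p = 0.903). Kdr, the main VEGF receptor, was at 3.44 and 3.21 on the CD45+ arrays and 3.93 and 3.56 on the CD45- arrays by its brighter probe (adjusted p = 0.474), its other probe gave -1.87, and the mean of its probes passed (difference -1.15, adjusted p = 0.00167). On both CD45+ arrays 38 of the 41 pan-endothelial genes were well above background, as were 41 on both CD45- arrays. The median level of the list was 1.79 and 2.03 on the CD45+ arrays and 3.61 and 3.51 on the CD45- arrays.

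Genes of arteries and of the Notch pathway showed 16 of 26 lower in CD45+ cells and 0 higher, with a median of -2.34. Gja5, the connexin 40 of arterial endothelium, was at -3.69 and -2.55 on the CD45+ arrays and 2.03 and 2.87 on the CD45- arrays (adjusted p = 2.19e-05), with -0.54 by its other probe. Igfbp3 was at -3.999 and -3.02 on the CD45+ arrays and 1.32 and 2.41 on the CD45- arrays, Sema3g at -2.87 and -2.03 on the CD45+ arrays and 2.18 and 3.41 on the CD45- arrays and Gja4, the connexin 37 of arteries, at 1.09 and 0.62 on the CD45+ arrays and 5.62 and 5.05 on the CD45- arrays, with adjusted p = 0.000112, 1.69e-05 and 4.82e-06. Sema3g differed by -2.92 by its other probe. The Notch ligand Dll4 was at -2.36 and -0.88 on the CD45+ arrays and 1.08 and 1.38 on the CD45- arrays (adjusted p = 0.00157), and the call was lost with the 4 arrays alone (adjusted p = 0.0638). Sox17, a factor of arterial and hemogenic endothelium, was at -2.07 and -1.51 on the CD45+ arrays and 1.22 and 2.33 on the CD45- arrays (adjusted p = 0.0002). Efnb2, the arterial ephrin, differed by -2.21 by its brighter probe and by 0.73 by the other, and the mean of both did not pass (adjusted p = 0.288).

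Venous and lymphatic genes followed, with 8 of 16 lower in CD45+ cells, 0 higher and a median of -1.95. Stab2, a scavenger receptor of sinusoidal and yolk sac endothelium, had the largest difference of all genes lower in CD45+ cells and measured there, at -1.600 and -0.72 on the CD45+ arrays and 4.42 and 6.14 on the CD45- arrays, 86.9-fold lower (adjusted p = 2.77e-05). Ephb4, the venous ephrin receptor, was at -1.54 and -1.05 on the CD45+ arrays and 2.29 and 2.68 on the CD45- arrays (adjusted p = 8.44e-05), and Nr2f2, which sets venous identity, at -4.07 and -3.66 on the CD45+ arrays and -0.65 and -0.12 on the CD45- arrays (adjusted p = 0.000157). Aplnr, the apelin receptor, was at least 28.3-fold lower (adjusted p = 0.00191). Calls on this list, as on the arterial one, all had 1 direction.

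The basement membrane of vessels was the list with the largest share of calls among those described here. All 22 tested genes lay below on both CD45+ arrays, against 23.3% of all genes. The test passed for 20 of them as lower, against 5.93% of all genes, and 0 were higher, with a median of -2.38. Col4a1 and Col4a2, the paired chains of type IV collagen, were at 0.03 and 0.44 on the CD45+ arrays and 4.24 and 5.05 on the CD45- arrays and at -0.05 and 0.32 on the CD45+ arrays and 3.84 and 4.52 on the CD45- arrays, with adjusted p = 1.92e-05 and 1.64e-05. Lamb1, a laminin chain, was at 0.02 and 0.41 on the CD45+ arrays and 3.60 and 4.06 on the CD45- arrays (adjusted p = 0.000351), and Sparcl1, a matrix protein, at -2.17 and -1.67 on the CD45+ arrays and 3.37 and 4.23 on the CD45- arrays (adjusted p = 4.66e-05). Bgn, the proteoglycan biglycan, differed least of the list, at -0.22 and -0.19 on the CD45+ arrays and 0.12 and 0.04 on the CD45- arrays (adjusted p = 0.603).

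The remaining genes with the largest differences on the CD45- side were of several kinds. Fabp4, a fatty acid carrier of capillaries, was at -2.10 and -2.44 on the CD45+ arrays and 2.94 and 3.67 on the CD45- arrays, Pcdh12, an endothelial protocadherin, at -3.01 and -2.15 on the CD45+ arrays and 2.18 and 3.42 on the CD45- arrays and Esm1, a proteoglycan of sprouting vessels, at -2.08 and -1.32 on the CD45+ arrays and 2.73 and 4.39 on the CD45- arrays, with adjusted p = 0.000582, 9.08e-05 and 0.0023. Slc26a10, of an anion transporter family, was at -3.69 and -3.88 on the CD45+ arrays and 2.11 and 1.37 on the CD45- arrays (adjusted p = 4.82e-06). For each of these genes both CD45+ arrays lay below both CD45- arrays. Hrct1, the hedgehog ligand Dhh, the tubulin regulator Stmn2 and Pramel39 were dim in CD45+ cells and were at least 36.6-fold, 35.3-fold, 33.6-fold and 27.5-fold lower there. With normexp background the differences were -3.05 for Clec14a, -1.03 for Palmd, -1.76 for Nr2f2, -2.59 for Aplnr, -2.81 for Hrct1, -2.84 for Dhh, -2.87 for Stmn2 and -2.53 for Pramel39.

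Genes of blood stem cells and their regulators gave calls in both directions, with 6 of 36 higher in CD45+ cells, 3 lower (5 with normexp background) and a median of -0.12. Over all genes 4.46% were higher and 5.93% were lower. Myb, needed for definitive blood cells, was at 4.47 and 4.50 on the CD45+ arrays and 2.14 and 2.39 on the CD45- arrays (adjusted p = 0.00498), and Spi1, which encodes PU.1, at 1.81 and 1.78 on the CD45+ arrays and -0.28 and -0.34 on the CD45- arrays (adjusted p = 0.0033). Runx1, needed for hemogenic endothelium, was at 4.02 and 3.84 on the CD45+ arrays and 3.63 and 3.14 on the CD45- arrays (adjusted p = 0.798). Gata2 was at 5.31 and 4.90 on the CD45+ arrays and 3.998 and 3.90 on the CD45- arrays (adjusted p = 0.201), and Cd34, a surface marker of both progenitors and endothelium, was at 6.31 and 6.43 on the CD45+ arrays and 6.41 and 6.75 on the CD45- arrays (adjusted p = 0.899). These 3 genes did not pass the test.

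Of 36 erythroid genes 0 were higher in CD45+ cells and 3 were lower, against 4.46% higher and 5.93% lower over all genes. Their median was -0.23, and with the replicate block there were 1 higher and 5 lower. The embryonic globins Hbb-bh1 and Hbb-y were at 6.83 and 7.42 on the CD45+ arrays and 6.91 and 7.80 on the CD45- arrays and at 8.80 and 8.79 on the CD45+ arrays and 8.58 and 9.11 on the CD45- arrays, with adjusted p = 0.944 and 0.972. The globin genes are close copies, and a probe may read several of them. The lower members were Aqp1, a water channel that endothelium also has, at 0.46 and 0.63 on the CD45+ arrays and 3.17 and 4.205 on the CD45- arrays (adjusted p = 0.000102), Epor, and Tal1, a regulator of blood and endothelium, at 3.71 and 3.83 on the CD45+ arrays and 5.38 and 5.12 on the CD45- arrays (adjusted p = 0.0264). Tal1 lost the call without any single of the 4 arrays (adjusted p = 0.0819 to 0.145). Gata1, which red cells and megakaryocytes need, was at 4.74 and 4.07 on the CD45+ arrays and 5.67 and 5.23 on the CD45- arrays and did not pass (adjusted p = 0.221).

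Of 19 lymphoid genes, 4 were higher and 3 were lower. These counts were unsteady, with 1 or 2 higher without any single of the 4 arrays and 1 lower without CD45+ replicate 1, CD45+ replicate 2 or CD45- replicate 2. There were 2 higher with the replicate block or the 8 yolk sac arrays and 1 with no filter on dim probes. Cd74, the invariant chain of class II presentation, was at 1.11 and -0.45 on the CD45+ arrays and -3.06 and -3.75 on the CD45- arrays (adjusted p = 0.00339), while Ebf1, a B cell factor that mesenchyme also uses, was at least 7.76-fold lower (adjusted p = 0.00145). With normexp background their differences were 2.41 and -1.15. Of the 21 ETS factors, the family of Etv2, 4 were higher and 2 were lower, and 1 to 3 were higher without any single of the 4 arrays, 1 of them without CD45+ replicate 2. With the 4 arrays alone 2 were higher and 1 was lower. For both of these lists the share over all genes was 4.46% higher and 5.93% lower in the main fit. Ets1, of endothelium, was at -1.63 and -2.18 on the CD45+ arrays and 0.90 and 1.41 on the CD45- arrays (adjusted p = 5.19e-05), and Elk3 at 4.10 and 4.29 on the CD45+ arrays and 4.83 and 5.03 on the CD45- arrays (adjusted p = 0.0115). Elk3 lost the call without CD45+ replicate 1 and without CD45- replicate 2 (adjusted p = 0.117 and 0.0956), and with the 4 arrays alone (0.102). Fli1, of blood and endothelium, was at 3.94 and 4.15 on the CD45+ arrays and 4.68 and 4.53 on the CD45- arrays (adjusted p = 0.196).

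Markers of cells that the gates should not hold were read beside these results. Of 30 genes of yolk sac endoderm and epithelium, 27 were well above background on both CD45+ arrays and 27 on both CD45- arrays, and the list's median level was -0.83 and 0.97 in CD45+ cells and -0.34 and 2.14 in CD45- cells. Afp, a serum protein made by the endoderm, was at 5.97 and 7.59 on the CD45+ arrays and 5.94 and 8.58 on the CD45- arrays, Ttr at 1.53 and 3.36 on the CD45+ arrays and 1.36 and 4.64 on the CD45- arrays and Cubn, an endocytic receptor, at 0.08 and 2.73 on the CD45+ arrays and 0.27 and 4.02 on the CD45- arrays, each higher in replicate 2 of both gates. The values of these 3 genes thus ran with the replicate number and not with the gate. In this list 0 genes were higher in CD45+ cells and 2 were lower, Gata4 and Gata6, against 4.46% higher and 5.93% lower over all genes. Gata6, a factor of endoderm and mesoderm, was at -3.92 and -3.08 on the CD45+ arrays and -0.35 and 0.59 on the CD45- arrays (adjusted p = 0.00061; -2.02 with normexp background). Genes of mesenchyme and mural cells had 0 of 27 higher and 6 lower (2 lower without CD45+ replicate 1, 1 without CD45- replicate 2, 10 with a trended robust prior, 12 with the replicate block, 11 with the 8 yolk sac arrays and 13 with the 4 arrays alone), with median levels of -2.56 and -3.36 in CD45+ cells and -1.95 and -1.51 in CD45- cells. Myl9, a smooth muscle myosin chain, was at -0.91 and -0.34 on the CD45+ arrays and 2.97 and 2.32 on the CD45- arrays (adjusted p = 0.000643), and Acta2, smooth muscle actin, at -0.84 and -0.22 on the CD45+ arrays and 1.42 and 1.30 on the CD45- arrays (adjusted p = 0.0196). Acta2 lost the call without CD45+ replicate 1, CD45- replicate 1 or CD45- replicate 2 (adjusted p = 0.16, 0.1 and 0.0843). Of 18 neural and muscle genes, 4 were well above background on both CD45+ arrays and 8 on both CD45- arrays, and 4 were lower in CD45+ cells (2 without CD45+ replicate 1, without CD45- replicate 2, with normexp background or with the 4 arrays alone), among them Stmn2 and the heart troponin Tnnt2 (difference -3.84 ± 0.70, adjusted p = 0.00478). Tnnt2 differed by -2.50 without CD45+ replicate 2 and by -1.04 with normexp background, and lost the call with the 4 arrays alone (adjusted p = 0.129). The part of such cells in the gate difference was not tested.

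No cell cycle gene and no gene that cell dissociation can induce passed the test. Over all genes 4.46% passed as higher and 5.93% as lower, so lists of 36 and 20 genes would hold few calls at those shares. Of 36 cell cycle genes 0 were higher and 0 were lower by limma's test, with a median of 0.18. Both CD45+ arrays lay above both CD45- arrays for 22 of them, Mki67 and Top2a included, and below for 3, against 28.9% above and 23.3% below over all genes. Mki67, the Ki-67 antigen of dividing cells, was at 6.35 and 6.47 on the CD45+ arrays and 6.24 and 6.20 on the CD45- arrays (adjusted p = 0.578), and Top2a at 4.49 and 4.63 on the CD45+ arrays and 4.23 and 4.08 on the CD45- arrays (adjusted p = 0.14). The 20 genes that cell dissociation can induce gave 0 higher and 0 lower, with Fos at 3.50 and 3.88 on the CD45+ arrays and 3.35 and 3.94 on the CD45- arrays and Nr4a1 at 8.16 and 8.17 on the CD45+ arrays and 7.21 and 7.31 on the CD45- arrays. In limma's test of all genes 4905 had an unadjusted p under 0.05 in this comparison. Nr4a1 passed with the 4 arrays alone and with the 8 yolk sac arrays (adjusted p = 0.0467 and 0.0144), where 1 and 2 genes of this list were higher. Interferon response genes showed 4 of 32 higher, 0 lower and a median of 0.55, and 2 higher without any single of the 4 arrays or with normexp background. With the 4 arrays alone 7 were higher and 1 was lower. The 4 were Oas2, which senses viral RNA, at 0.02 and -0.09 on the CD45+ arrays and -4.10 and -4.17 on the CD45- arrays (adjusted p = 0.00237), the immunoproteasome gene Psmb8 at 3.50 and 3.41 on the CD45+ arrays and 1.13 and 0.97 on the CD45- arrays (adjusted p = 0.000347), Mx1 and Irf7. Mx1 and Irf7 lost the call with normexp background (adjusted p = 0.837 and 0.095), Irf7 with the 8 yolk sac arrays and with no filter on dim probes (0.0593 and 0.0564), and both without any single of the 4 arrays (adjusted p = 0.0961 to 0.133 and 0.0637 to 0.212).

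**Figure D3:**
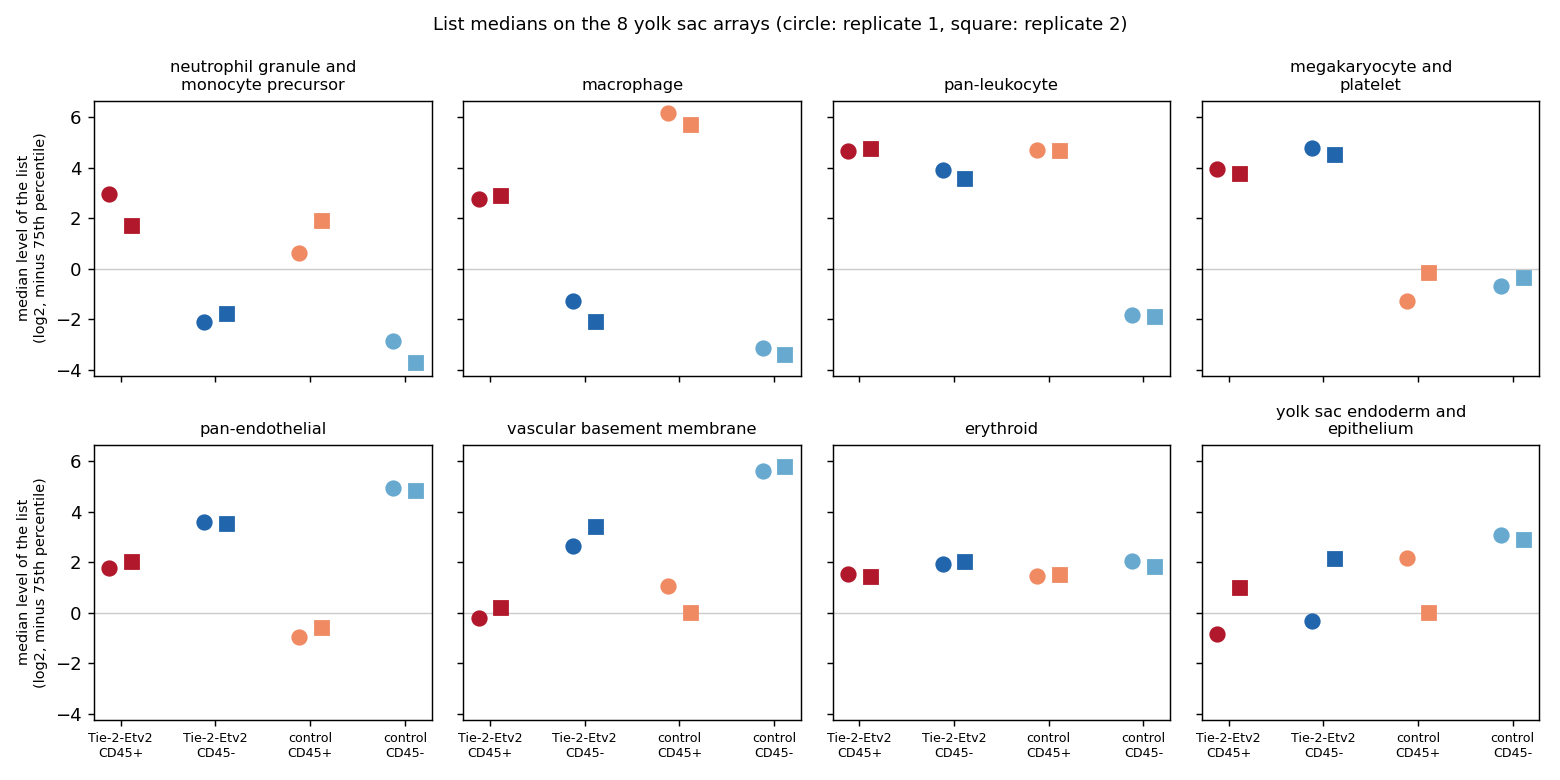
Median level of the genes of 8 lists on each of the 8 yolk sac arrays, as log2 signal minus the 75th percentile of the array; circles are replicate 1 and squares replicate 2. Pan-leukocyte medians lay between 3.56 and 4.75 on the 4 Tie-2-Etv2 arrays and at -1.83 and -1.92 on the control CD45- arrays, and endoderm medians differed between replicates of both Tie-2-Etv2 gates.

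The gates lay closer to each other in the Tie-2-Etv2 yolk sac than in the control yolk sac, where the correlation across genes between a CD45+ and a CD45- array was 0.859 to 0.876. In control animals 9433 genes differed between CD45+ and CD45- cells (38.4%), 5555 higher (22.6%) and 3878 lower (15.8%). The difference between the genotypes' gate differences, fitted as an interaction, passed for 4517 genes (18.4%), 1938 with a higher value in Tie-2-Etv2 animals (7.89%) and 2579 with a lower value (10.5%). With detected-probe scaling, which takes the percentile over probes detected on all arrays, the split was 2497 higher against 2001 lower. Without control CD45- replicate 2 there were 1688 lower. These comparisons share no arrays. Genes were also taken by their control values, which by itself favours larger values in controls. The 933 genes that were at least 8-fold higher in control CD45+ cells and passed there had a median difference of 1.33 in the Tie-2-Etv2 yolk sac and of 4.37 in controls, and in the Tie-2-Etv2 yolk sac 438 of them were higher and 12 were lower. The 1271 genes at least 8-fold lower in control CD45+ cells had a median of -1.72 in the Tie-2-Etv2 yolk sac and of -4.26 in controls, and in the Tie-2-Etv2 yolk sac 651 were lower and 5 were higher. Of the genes called in the Tie-2-Etv2 yolk sac, 788 of the 1096 higher genes were also higher in the control yolk sac and 46 were lower, and 1116 of the 1457 lower genes were also lower in the control yolk sac and 71 were higher.

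The smaller differences showed in the levels of both gates. On the CD45- side, 31 of 32 pan-leukocyte genes were well above background on both Tie-2-Etv2 arrays, and 24 on both control arrays, with median levels of 3.90 and 3.56 against -1.83 and -1.92. The interaction passed for 31 of these genes, all with a lower value in Tie-2-Etv2 animals. Plek had a gate difference of -0.57 in Tie-2-Etv2 animals and 8.10 in controls (interaction -8.68 ± 0.38, adjusted p = 5.68e-07), where its levels were 6.86 and 6.66 in CD45+ cells and -1.46 and -1.23 in CD45- cells. Rac2, with -8.62 ± 0.38 (adjusted p = 5.68e-07), and Ccdc88b, with -7.77 ± 0.32 (adjusted p = 5.68e-07), ran alike. F13a1 had the largest interaction among genes measured on all 8 arrays, -11.49 ± 0.41 (adjusted p = 5.68e-07), and was at 8.99 and 8.46 in control CD45+ cells and at -3.05 and -3.56 in control CD45- cells. Pf4 was higher in control CD45+ cells, at 9.34 and 8.84 against 1.32 and 1.79 in control CD45- cells, and lower in Tie-2-Etv2 CD45+ cells (interaction -9.63 ± 0.46, adjusted p = 9.62e-07). Tbxas1, the thromboxane synthase of platelets and macrophages, had gate differences of -1.29 in Tie-2-Etv2 animals and 7.01 in controls, and was lower in Tie-2-Etv2 CD45+ cells (adjusted p = 0.0217; interaction -8.29 ± 0.43, adjusted p = 1.66e-06).

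On the CD45+ side, 38 of 41 pan-endothelial genes were well above background on both Tie-2-Etv2 arrays, and 33 on both control arrays, with median levels of 1.79 and 2.03 against -0.97 and -0.59. The interaction passed with a higher value for 37 of them and with a lower value for 1. Tek was at -2.93 and -1.96 in control CD45+ cells and 4.08 and 4.38 in control CD45- cells (interaction 5.71 ± 0.43, adjusted p = 2.17e-05), and Cdh5 at -0.44 and -0.08 in control CD45+ and 5.99 and 5.52 in control CD45- cells (interaction 4.27 ± 0.43, adjusted p = 0.000117). On the CD45+ arrays both were thus higher in Tie-2-Etv2 animals than in controls. Pecam1 was at -1.13 and -0.87 in control CD45+ cells and 3.65 and 3.83 in control CD45- cells (interaction 4.55 ± 0.32, adjusted p = 1.4e-05). Among genes measured on all 8 arrays, the largest positive interactions belonged to Pi16, a peptidase inhibitor (8.12 ± 0.65, adjusted p = 3.07e-05), F3, the tissue factor of coagulation (6.59 ± 1.34, adjusted p = 0.00673), and Hid1, of secretory granules (6.43 ± 0.50, adjusted p = 2.63e-05). Next came Ltf (6.29 ± 1.24, adjusted p = 0.00558), the transporter gene Slco3a1 (6.14 ± 0.95, adjusted p = 0.0015) and Lbp, of endotoxin binding (6.05 ± 0.33, adjusted p = 2.45e-06). Pi16, F3, Hid1, Slco3a1 and Lbp had gate differences of 0.97, 1.32, -0.26, 0.85 and 1.12 in Tie-2-Etv2 animals and of -7.15, -5.27, -6.69, -5.29 and -4.93 in controls.

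**Figure D4:**
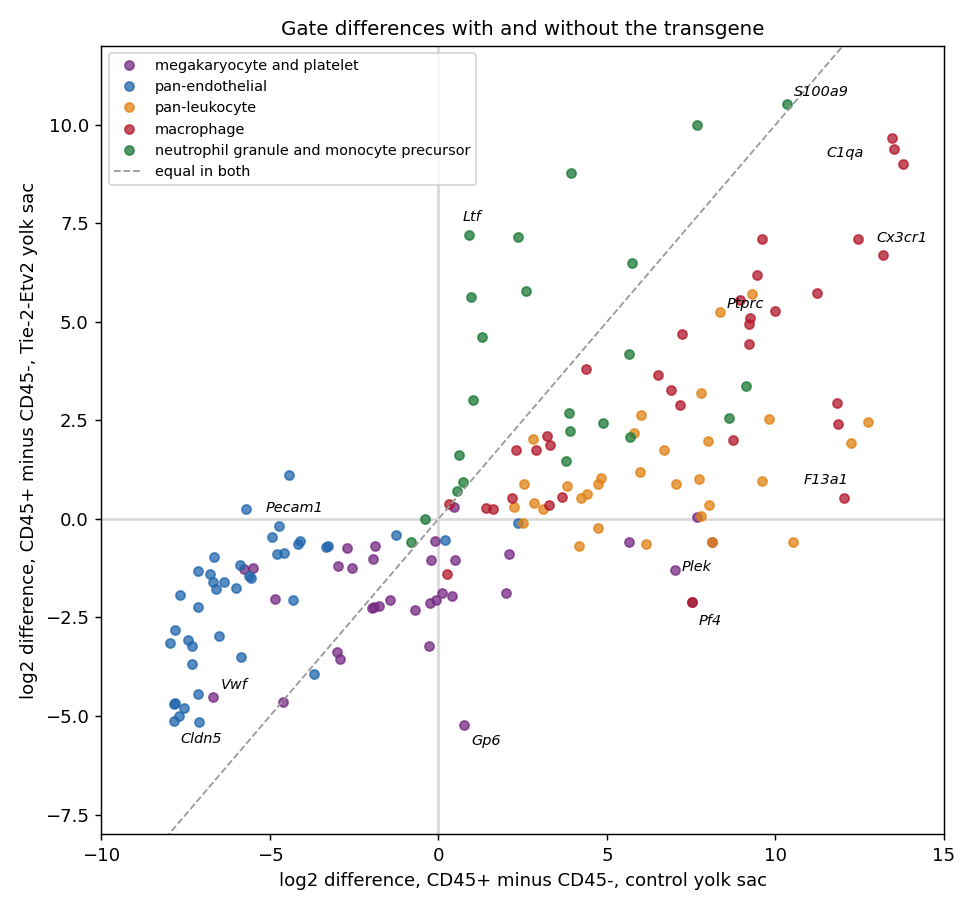
Log2 gate difference, CD45+ minus CD45-, in the Tie-2-Etv2 yolk sac (vertical axis) against that in the control yolk sac (horizontal axis) for the genes of 5 lists; the dashed line marks equal differences. Pan-leukocyte and pan-endothelial genes lay nearer to 0 on the vertical than on the horizontal axis, while many neutrophil granule genes lay on or above the line.

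Progenitor regulators and granule genes were mixed. Kit, Gata2 and Cd34 had gate differences of 1.17, 1.16 and -0.21 in Tie-2-Etv2 animals and of -2.83, -3.42 and -4.42 in controls, and their interactions were 3.998 ± 0.82, 4.58 ± 0.68 and 4.21 ± 0.65 (adjusted p = 0.00693, 0.0012 and 0.00147). Runx1 had differences of 0.54 and 5.38 in the same order (interaction -4.84 ± 0.95, adjusted p = 0.00539). Of the 23 granule and precursor genes the interaction passed for 3 with a higher and 3 with a lower value, against 7.89% and 10.5% of all genes. S100a9 had gate differences of 10.54 in Tie-2-Etv2 animals and 10.35 in controls, a difference between genotypes that did not pass (interaction 0.18 ± 2.12, adjusted p = 0.971). The control CD45+ arrays stood far apart for this gene, at 1.13 and 5.19, and it was not well above background on the control CD45- arrays. With normexp background its interaction was 4.26 (adjusted p = 0.0942). Hdc differed by 5.68 in Tie-2-Etv2 animals and by 0.46 in controls (interaction 5.22 ± 0.82, adjusted p = 0.00165) and Mpo by 2.57 and 8.61 (interaction -6.05 ± 0.75, adjusted p = 0.00042). Some values rest on dim control probes: Ptprc (interaction -3.10 ± 0.42, adjusted p = 0.000677), Spi1 (-6.29 ± 0.51, adjusted p = 3.16e-05), C1qa (-4.12 ± 0.54, adjusted p = 0.000578) and Lyz2 (-9.45 ± 0.41, adjusted p = 5.68e-07) were not well above background in control CD45- cells. With normexp background their interactions were -1.57, -2.75, -3.83 and -4.72. C1qa was not well above background in Tie-2-Etv2 CD45- cells either. Etv2 was also dim in controls, at -6.20 and -2.09 on the control CD45+ arrays. The interaction of Etv2 with genotype did not pass (interaction -0.28 ± 1.35, adjusted p = 0.927). Its value was -1.63 with normexp background (adjusted p = 0.0143), 1.78 without control CD45+ replicate 2 (adjusted p = 0.0409) and -2.33 without control CD45+ replicate 1 (adjusted p = 0.0137).

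The gate difference of the yolk sac was also set against that of the Tie-2-Etv2 embryo. The titles of the embryo CD45- arrays name Tie-2 without Etv2, and these arrays were taken as Tie-2-Etv2 from their genotype label. Etv2 was at 0.11 and 0.94 on the embryo CD45+ arrays and 2.58 and 2.13 on the embryo CD45- arrays. The gate differences of the 2 tissues differed for 1651 genes (6.72%), 719 with a higher value in the yolk sac (2.93%) and 932 with a lower value (3.79%). Leaving out any single of the 8 arrays other than yolk sac CD45- replicate 2 brought the higher count to between 365 and 448, and leaving out any other than that array and embryo CD45+ replicate 2 brought the lower count to between 505 and 576. Yolk sac and embryo arrays lay on different slides and scans, so tissue and slide cannot be told apart. Of the 32 pan-leukocyte genes 28 had a lower value in the yolk sac and 0 a higher one, and 20 of 41 pan-endothelial genes had a higher value and 0 a lower one. Ptprc differed between the gates by 5.24 in the yolk sac and 8.16 in the embryo (interaction -2.92 ± 0.42, adjusted p = 0.0031; -0.97 and 0.113 with normexp background). Cdh5 and Tek had interactions of 1.84 ± 0.43 and 2.12 ± 0.43 (adjusted p = 0.029 and 0.0169). The Cdh5 call was lost without any single of the 8 arrays (adjusted p = 0.0521 to 0.108) and with no filter on dim probes (0.0518), and the Tek call without 5 of them (adjusted p = 0.0501 to 0.0701). Etv2 had gate differences of -1.64 in the yolk sac and -1.83 in the embryo (interaction 0.19 ± 1.35, adjusted p = 0.975).

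Among genes measured on all 8 arrays, chemokine and other inflammatory genes had the largest interactions with a lower value in the yolk sac. Ccl3 was at 5.62 and 5.11 in CD45+ and 0.27 and 0.38 in CD45- cells of the yolk sac, and at 7.65 and 7.32 in CD45+ and -4.08 and -2.59 in CD45- cells of the embryo (interaction -5.78 ± 0.66, adjusted p = 0.000998). Tnf, a cytokine of macrophages, was at 3.84 and 4.51 in CD45+ and 3.18 and 3.45 in CD45- cells of the yolk sac, and at 6.37 and 5.17 in CD45+ and -0.28 and -0.24 in CD45- cells of the embryo (interaction -5.17 ± 0.75, adjusted p = 0.00316). The CD45- arrays of the yolk sac lay above those of the embryo for both genes, and the CD45+ arrays below. Ccl4 (-5.64 ± 1.17, adjusted p = 0.0175), Tbxas1 (-5.38 ± 0.43, adjusted p = 0.000362), Ms4a6d (-4.94 ± 0.55, adjusted p = 0.000878) and F13a1 (-4.86 ± 0.41, adjusted p = 0.000408) ran alike, and Ccl4 lost the call without 5 of the 8 arrays (adjusted p = 0.051 to 0.0693) and with the replicate block (0.054). With a higher value in the yolk sac came Nts, which encodes neurotensin, at -3.85 and -3.41 in CD45+ and -2.40 and -2.49 in CD45- cells of the yolk sac and at -2.66 and -3.68 in CD45+ and 3.07 and 2.30 in CD45- cells of the embryo (interaction 4.67 ± 0.74, adjusted p = 0.00513). Kbtbd11 (4.43 ± 0.64, adjusted p = 0.00325; 2.00 by the mean of its 3 probes), Thy1, the surface protein CD90 (4.23 ± 0.64, adjusted p = 0.0039), 1110032F04Rik (4.03 ± 0.58, adjusted p = 0.00303), Ramp3, a receptor partner (3.81 ± 0.77, adjusted p = 0.0155), and Grrp1 (3.70 ± 0.63, adjusted p = 0.00728) were the others. Ramp3 lost the call without embryo CD45+ replicate 1, embryo CD45- replicate 2 or yolk sac CD45+ replicate 1 (adjusted p = 0.0641, 0.0557 and 0.0608). On the CD45- arrays these 6 genes were lower in the yolk sac than in the embryo.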

How the data were processed

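RNA of sorted cells was labelled with a low-input kit and hybridised to 1-colour Agilent arrays. The deposited scanner files hold the processed signal intensity of each spot, from Agilent Feature Extraction 10.7 per the file headers, with background subtracted and spatial trends removed within the array. Probe positions are on mm9, per the file headers. The authors' separate value table was not used, since its deposited log2 values are centred within tissue and gate. The members and gene lists were chosen with earlier results of these data known, so lists are described by counts and medians and have no test of their own.

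Control spots and outlier spots were removed (59305 of 62976 spots are not controls), spots of a probe were averaged, and each array's 75th percentile was subtracted from log2 intensity. A probe was kept where both arrays of 1 or more of the 8 groups read it well above background (34125 of 55681). The brightest probe stood for a gene (24578 genes, 16532 with a symbol of the RefSeq table on GRCm38.p6). All 16 arrays entered limma 3.58.1 (R 4.3.3, lmFit and eBayes) with a mean for each of the 8 groups (8 residual degrees of freedom and 2.29 of the prior), and p-values were adjusted over all genes (Benjamini-Hochberg, 0.05). Errors given after ± are standard errors of that fit. "At least N-fold" sets the brighter group's mean against, per array of the dim group, the probe's own signal or the lowest one that was well above background, whichever was higher. Precision is limited by 2 arrays a group. The fit was also run on simulated data with changed genes, with noise drawn independently for each gene and array. Those data held no background floor and no shared deviation of replicates, so they cannot show how the fit behaves under either.

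The text names the sorting markers and Etv2, the 10 largest differences each way and the 6 largest interactions each way. Those differences and interactions were ranked among genes with a symbol that passed the test and were well above background on all arrays compared. It also names the 5 largest bounds each way, up to 4 largest members past the test and 2 smallest members of each list, and list members whose role is described. Genes outside this rule, Gata4 and those under the other observations, were chosen after their values were seen. Alternatives were quantile and detected-probe scaling, normexp background (offset 50), looser and stricter filters, the mean of probes, a trended robust prior, the replicate block, fewer arrays and leaving out each array.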

Additional observations from a re-analysis of the deposited data

Results flagged for a closer look

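Each value here is a difference between gate differences (CD45+ minus CD45-, log2) that passed limma's interaction test across all genes. Set against the control yolk sac, the Tie-2-Etv2 yolk sac had a lower gate difference for F13a1 (-11.49), Pf4 (-9.63), Lyz2 (-9.45), Plek (-8.68), Rac2 (-8.62), Tbxas1 (-8.29), Ccdc88b (-7.77), Spi1 (-6.29), Mpo (-6.05), Runx1 (-4.84), C1qa (-4.12) and Ptprc (-3.10). Lyz2, Spi1, C1qa and Ptprc were not well above background on the control CD45- arrays. C1qa was not well above background on the Tie-2-Etv2 CD45- arrays either.

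The gate difference was higher in the Tie-2-Etv2 than in the control yolk sac for the endothelial genes Tek (5.71), Pecam1 (4.55) and Cdh5 (4.27), for the progenitor genes Gata2 (4.58), Cd34 (4.21) and Kit (3.998), for Pi16 (8.12), F3 (6.59), Hid1 (6.43), Slco3a1 (6.14) and Lbp (6.05), and for the granulocyte genes Ltf (6.29) and Hdc (5.22). The genotypes were hybridised on 1 slide in this tissue, but in different positions on it, so genotype and position cannot be told apart.

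Between the tissues of Tie-2-Etv2 animals, the gate difference was lower in the yolk sac than in the embryo for Ccl3 (-5.78), Ccl4 (-5.64), Tbxas1 (-5.38), Tnf (-5.17), Ms4a6d (-4.94), F13a1 (-4.86) and Ptprc (-2.92). It was higher in the yolk sac for Nts (4.67), Kbtbd11 (4.43), Thy1 (4.23), 1110032F04Rik (4.03), Ramp3 (3.81), Grrp1 (3.70), Tek (2.12) and Cdh5 (1.85). Tissue and slide cannot be told apart here.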

How the results depend on the processing

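Every alternative that kept both replicates left the 6 counts of genes within 1.5 times those given. Leaving out 1 array at a time gave 645 to 836 higher and 914 to 1067 lower genes between the gates, 1306 to 1806 and 1688 to 2616 for the interaction with genotype, and 365 to 610 and 505 to 782 for the interaction with tissue. The same replicate numbers deviated together with correlations of 0.372 in the Tie-2-Etv2 yolk sac, 0.0320 in the control yolk sac, 0.222 in the Tie-2-Etv2 embryo and 0.385 in the control embryo, and the labels tie no number to a shared litter, animal or day. With 1 of these 4 values near 0 and 2 arrays a group, the numbers were not taken to pair the samples, and pairing remains possible. The fit with the replicate block gave 1266 higher and 1732 lower genes between the gates, 2299 and 3183 for genotype and 933 and 1171 for tissue. Of 138 named genes, normexp background moved 38 by over 1.5 times and ended 4 calls between the gates and added 4 (Tek, Etv2, Fermt3 and Itga2b). The signs of small differences turned for Fos with quantile normalization (-0.0102) and Rgs18 with normexp background (-0.0111). With the probe mean the difference of Itgam turned from -0.06 to 1.68 and passed the test (adjusted p = 0.000963). Without 1 array the difference ran between -0.24 and 0.34 for Fos, -0.0798 and 0.172 for Rgs18, -0.25 and 0.13 for Itgam, -0.14 and 0.66 for Erg, -0.0665 and 0.204 for Btk, -0.67 and 0.22 for Hbb-bh1, -0.32 and 0.21 for Hbb-y, -1.80 and 0.84 for Afp, -2.61 and 1.14 for Cubn and -2.19 and 1.09 for Ttr. The genotype interaction ran between -2.33 and 1.78 for Etv2 and between -1.85 and 2.21 for S100a9 (4.26 with normexp background), and the tissue interaction between -0.22 and 0.60 for Etv2. The stricter filter, which tested fewer genes, gave 14 of 24 macrophage, 12 of 19 receptor and 6 of 13 chemokine genes higher. The causes were not tested. Probes that were not well above background in 1 gate give bounds only.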

Other observations

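Some genes known from eosinophils, which were chosen after their values were seen, differed between the gates of the Tie-2-Etv2 yolk sac. Epx, Prg3, Ear1, Ear2 and Siglecf passed the test, and Il5ra and Ccr3 did not. Ccr3 is also counted in the list of chemokines and their receptors, and no list held the others. Epx, the eosinophil peroxidase, was at 2.40 and 0.47 on the CD45+ arrays and not well above background on either CD45- array, at least 78.7-fold higher (limma, adjusted p = 0.00124). Prg3, Ear2 and Ear1, further granule proteins, were at 2.51 and 0.98, at 4.69 and 1.31 and at 2.85 and -0.71 on the CD45+ arrays, at least 97.3-fold, 232-fold and 60.9-fold higher. All 4 genes read higher on CD45+ replicate 1 than on replicate 2. Ear1 and Ear2 are close copies of a gene family, and a probe may read several. Siglecf, a lectin of eosinophils, was at 3.46 and 3.10 on the CD45+ arrays and -1.02 and -1.16 on the CD45- arrays (adjusted p = 0.00029). Il5ra, the receptor chain for the eosinophil growth factor, was at 1.23 and 1.74 on the CD45+ arrays and 0.38 and 0.23 on the CD45- arrays (adjusted p = 0.147), and Ccr3, the eotaxin receptor, at -3.51 and -3.50 on the CD45+ arrays and -4.16 and -4.75 on the CD45- arrays (adjusted p = 0.514), and neither passed. Control CD45+ arrays held Epx at -1.66 and 1.82 and Ear2 at 1.03 and 3.30, and the genotype interactions of Epx and Ear2 did not pass (adjusted p = 0.773 and 0.867).

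Some genes of secreted factors also differed, and these too were chosen after their values were seen. The calls of genes named only under these other observations were not checked under the alternative settings. Il6, an inflammatory cytokine, was at 3.30 and 1.51 on the CD45+ arrays and -3.73 and -4.23 on the CD45- arrays (adjusted p = 0.0362). Inhba and Inhbb, which encode the beta chains of the activins, lay on opposite sides: Inhba was higher in CD45+ cells by at least 13.4-fold (adjusted p = 3.61e-05) and Inhbb at least 12.8-fold lower (adjusted p = 0.00899). Apln, the ligand of the apelin receptor, was at -3.13 and -3.25 on the CD45+ arrays and 0.87 and 1.78 on the CD45- arrays (adjusted p = 7.46e-05), as its receptor gene Aplnr was lower in CD45+ cells too. The caveolar genes Cavin2 and Cav1 were lower in CD45+ cells, Cavin2 at -0.25 and -0.68 on the CD45+ arrays and 4.02 and 4.81 on the CD45- arrays (adjusted p = 1.83e-05) and Cav1 by at least 3.68-fold (adjusted p = 0.000487). Of platelet surface genes outside the list, Ly6g6f was at -3.24 and -5.52 on the CD45+ arrays and 2.04 and 0.94 on the CD45- arrays (adjusted p = 0.000392), and Mpig6b and Cd226 were at least 16.8-fold and 13.9-fold lower in CD45+ cells.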
